A study of Homo sapiens with 2 samples.

Results

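The genes of oxidative phosphorylation, the mitochondrial pathway that makes most ATP in respiring cells, were followed in KYSE150 cells after knockdown of the long non-coding RNA lncRNA625. Members were taken by symbol in the platform's gene annotation (symbols starting NDUF, UQCR, ATP5, or COX and a digit, and the SDH subunits), without pseudogenes and antisense RNAs, and each gene was represented by its row with the highest mean of both arrays. This gave 91 genes of the 22465 that had a row of their own: 75 subunits of complexes I to V and 16 assembly factors, which share the symbols but are not parts of the finished complexes. KYSE150 is a human cell line grown from a squamous carcinoma of the esophagus. One group stably carried a lentiviral short hairpin against lncRNA625 (shlncRNA625, the knockdown), after puromycin selection and screening of clones for the knockdown. The other stably carried a scrambled hairpin (shscramble, the control), for which the paper describes infection but no screening of clones. Whether an array held the RNA of 1 clone is not stated, and 1 sample label speaks of siRNA in place of a hairpin. Each group held 1 Affymetrix Human Transcriptome Array 2.0, so no value has an error and no test was made. The precision is limited by that number of arrays. No row could be tied to lncRNA625, so its own level was not checked here.

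Complex I takes electrons from NADH and complex II from succinate, and both pass them to ubiquinone. Complex III hands them on to cytochrome c and complex IV to oxygen, while complexes I, III and IV pump the protons that drive complex V, the ATP synthase. Most subunits are encoded in the nucleus and imported, and assembly factors insert cofactors and join the modules. Tumour cells often combine this pathway with a high rate of glycolysis, and squamous carcinoma lines such as KYSE150 have epithelial character. The epithelial markers KRT8 and EPCAM were bright, with 14.50 and 12.14 on the knockdown array and 14.57 and 12.14 on the control array. The basal keratin KRT5 had 16.11 on the knockdown array and 16.50 on the control array, and E-cadherin, CDH1, had 14.44 on the knockdown array and 13.86 on the control array, differences of -0.39 and 0.58. KRT14, the usual partner of KRT5 in basal cells, was at 5.63 on both arrays, within the range that background probe rows reached. In contrast, 10 of 11 markers of fibroblasts, endothelium, leukocytes, columnar epithelium and muscle lay below the signal limit. The exception was ACTA1, an actin of skeletal muscle, at 6.94 on both arrays.

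Almost all oxidative phosphorylation genes had the same signal on both arrays, and the few that differed did so by little. A gene was counted as measured where its mean signal reached 4.97, the median of all rows with 1 symbol, and 86 of the 91 genes did. Of these, 74 had exactly equal values on both arrays, 86.0%, against 76.0% of the 11323 genes past this limit. Differences are knockdown minus control on the deposited log2 scale, and a gene is called higher or lower where its difference passes 0.1 on that scale. By this rule 1 member was higher and 4 were lower, whereas over all genes 6.76% were higher and 6.62% lower. No member differed by more than 1.5-fold, the limit in the results of the study, whose methods name 2-fold. Of all genes 1.11% passed 1.5-fold upward and 0.477% downward. The mean difference of the members was -0.010 and that of all genes was 0.0053, with both medians at 0. Most genes of the table shared this exact equality, and it was not read as a measured absence of change. In a bulk sample, fewer cells with a transcript and less of it per cell cannot be told apart.

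**Figure D1:**
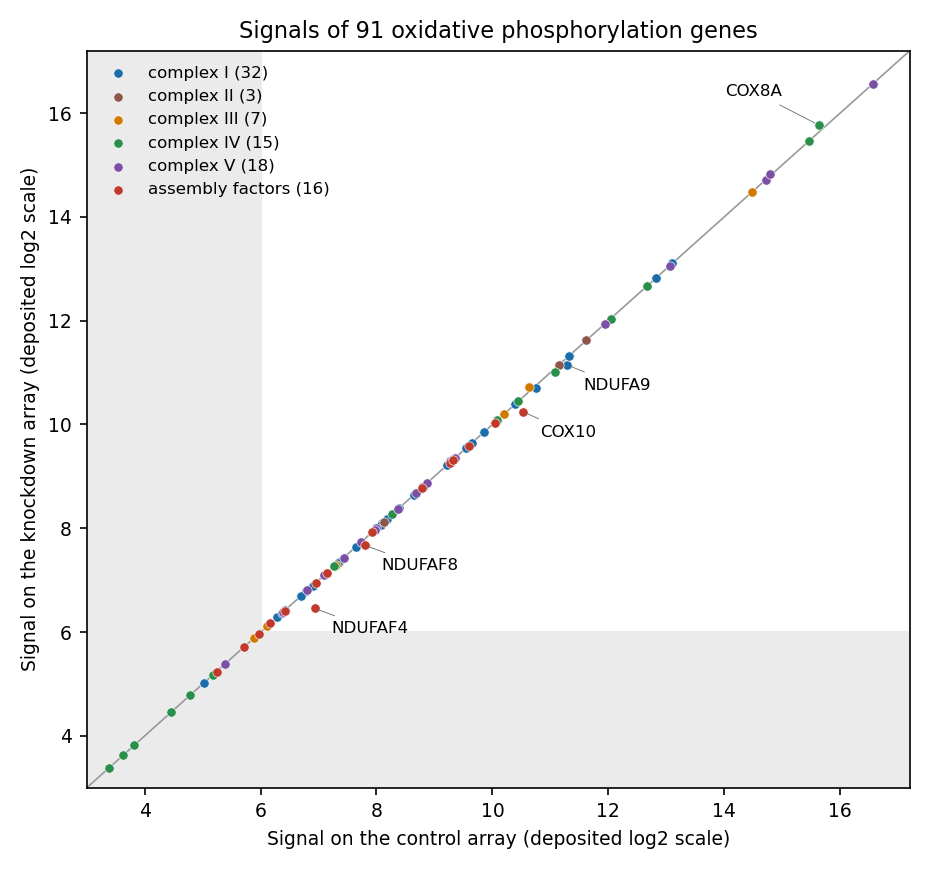
Signal of each of the 91 oxidative phosphorylation genes on the knockdown array (vertical axis) against the control array (horizontal axis), both on the deposited log2 scale, coloured by complex. Grey bands mark the range up to 6.003 that background probe rows reached, the line marks equality, and the 5 genes with a difference beyond 0.1 are named.

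The 2 genes that differed most, NDUFAF4 and COX10, were assembly factors, and the 3 assembly factors that differed were all lower on the knockdown array. These 3 made up 18.8% of the 16, where 6.62% of all genes past the signal limit were lower and 6.76% higher. At a signal of at least 9, these shares of all genes were 14.3% and 10.7%, but of the 3 only COX10 was that bright. Of all genes from the signal limit up to 7, the range of NDUFAF4, 74 of 4419 were lower and 188 higher. From 7 to 9, the range of NDUFAF8, 179 of 3433 were lower and 207 higher. With 3 genes and 1 array per group, a common direction of assembly factors cannot be read from this and was not tested. NDUFAF4, which acts early in the assembly of complex I, had a signal of 6.46 on the knockdown array and 6.93 on the control array, a log2 difference of -0.47 or 0.720-fold. Both values lay not far above the background probe rows, which reached 6.003. COX10, the farnesyltransferase of the first step in the synthesis of haem A for complex IV, had 10.25 on the knockdown array and 10.53 on the control array, a difference of -0.28 or 0.823-fold. NDUFAF8, which works with NDUFAF5 on complex I, had 7.67 on the knockdown array and 7.80 on the control array, a difference of -0.13. The remaining 13 assembly factors were equal on both arrays. COX15, which follows COX10 in haem A synthesis, was among these at 9.59, as was NDUFAF5 at 6.17. The mean difference over all 16 was -0.055. For the other equal ones, the common value was 8.78 for NDUFAF1, 10.04 for NDUFAF2, 6.41 for NDUFAF3 and 9.32 for NDUFAF7 among the factors of complex I. NDUFAF6, at 5.24, lay within the range of the background rows. Among those of complex IV it was 7.14 for COX11 and 6.95 for COX17, both of copper delivery, 7.93 for COX18, 9.26 for COX20, and 5.71 and 5.97, within the background range, for COX14 and COX19.

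The promoters of the called members are shown because nuclear respiratory factors and ETS factors are known to act on this pathway through sites close to the start of transcription. Each run is the 250 bases before the RefSeq start on GRCh38.p14, 5′ to 3′ on the strand of the gene, for the called genes with a single start in the table. Capitals mark matches on either strand to the letters searched, which were GCGCA and GCGC separated by any base for NRF1, CCGGAAG for ETS factors such as GABP, AAGATGGC for YY1 and GGGCGG for SP1. None of these strings contains another. The 4 stretches are chr6:96897892-96898141 on the minus strand for NDUFAF4, and on the plus strand chr17:14069254-14069503 for COX10, chr12:4648864-4649113 for NDUFA9 and chr11:63974370-63974619 for COX8A.
NDUFAF4: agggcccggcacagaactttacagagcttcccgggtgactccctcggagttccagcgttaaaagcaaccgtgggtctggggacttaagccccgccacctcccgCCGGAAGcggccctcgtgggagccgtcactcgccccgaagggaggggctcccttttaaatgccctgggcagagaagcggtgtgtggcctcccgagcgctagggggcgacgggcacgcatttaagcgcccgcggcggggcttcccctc
COX10: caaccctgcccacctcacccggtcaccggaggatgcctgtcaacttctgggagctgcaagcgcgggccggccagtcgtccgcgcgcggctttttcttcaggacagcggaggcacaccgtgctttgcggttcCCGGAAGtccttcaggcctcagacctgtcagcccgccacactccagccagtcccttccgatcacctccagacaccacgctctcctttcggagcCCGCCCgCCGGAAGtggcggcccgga
NDUFA9: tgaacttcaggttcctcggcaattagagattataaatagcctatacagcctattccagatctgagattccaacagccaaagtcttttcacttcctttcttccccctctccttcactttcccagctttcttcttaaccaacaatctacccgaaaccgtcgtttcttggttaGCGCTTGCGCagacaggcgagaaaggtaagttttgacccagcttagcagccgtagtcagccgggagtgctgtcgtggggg
COX8A: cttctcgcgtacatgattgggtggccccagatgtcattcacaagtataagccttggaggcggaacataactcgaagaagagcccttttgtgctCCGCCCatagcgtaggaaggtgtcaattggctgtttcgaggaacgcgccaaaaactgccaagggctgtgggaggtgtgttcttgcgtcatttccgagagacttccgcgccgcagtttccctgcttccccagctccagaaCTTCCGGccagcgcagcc
An ETS match lay in the NDUFAF4, COX10 and COX8A stretches, including one that began 19 bases before the start of COX10 and one 18 bases before that of COX8A. NDUFA9 held the NRF1 letters 80 bases before its start. The YY1 letters followed the start, from base 28 in COX10 and base 11 in NDUFA9. NDUFAF8 has 3 starts in the table and is not printed, and the ETS and YY1 letters both occurred at 2 of its 3 starts. No set of letters was common to the 5 genes that differed, and the 1 that was higher shared the ETS letters with 3 that were lower.

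Such letters were frequent in the promoters of oxidative phosphorylation genes in general, compared with the whole genome's promoters. RefSeq promoters of 250 bases before and 50 after the start were matched by symbol to 75 of the 91 members, which had 96 starts, and neighbouring starts of 1 gene can share sequence. The NRF1 letters were found at 20 of these, 20.8%, against 5.78% of all 35116 promoters and 7.38% of those of protein-coding genes. ETS letters were found at 27.1% of member promoters, 10.3% of all and 12.8% of protein-coding ones, and YY1 letters at 14.6%, 2.89% and 3.53%. The SP1 letters, at 59.4%, were nearly as frequent in promoters of protein-coding genes, at 56.3%. By complex, NRF1 letters were found at 6 of 35 starts of complex I, 2 of 2 of complex II, 3 of 5 of complex III, 1 of 14 of complex IV and 4 of 17 of complex V. ETS letters were found at 4 of 35 starts of complex I, 11.4%, which is below the 12.8% of protein-coding promoters. They were found at 1 of 2 starts of complex II, 2 of 5 of complex III, 5 of 14 of complex IV and 6 of 17 of complex V. Among the assembly factors they were found at 8 of 23. YY1 letters were found at 6 of 35 starts of complex I, 0 of 2 of complex II, 1 of 5 of complex III, 0 of 14 of complex IV and 4 of 17 of complex V. These numbers of starts are small, and no difference between complexes was tested. A match describes the sequence and is not a measured site.

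In complex I, which had 32 members, 28 were equal on both arrays and 1 passed the limit. Of all genes past the signal limit, 76.0% were equal, 6.76% higher and 6.62% lower. NDUFA9, a supernumerary subunit near the junction of the arms, had 11.15 on the knockdown array and 11.28 on the control array, a difference of -0.13 or 0.915-fold. Of the core subunits, which carry out the redox chemistry and are conserved from bacteria, 5 had a row of their own. NDUFS3 had 10.70 on the knockdown array and 10.75 on the control array, and NDUFV1, which binds NADH and FMN, had 9.297 on the knockdown array and 9.27 on the control array. Their differences of -0.057 and 0.032 ran in opposite directions and stayed within 0.1. The iron-sulfur subunits NDUFS1, NDUFV2 and NDUFS7 were equal, at 9.85, 8.79 and 5.21, the last within the range of the background rows. NDUFS5, the complex I row with the highest signal, had 13.12 on the knockdown array and 13.11 on the control array, a difference of 0.013. The other 25 of the 27 supernumerary subunits were equal, from NDUFB4 at 5.02 to NDUFA12 at 12.83. They include NDUFAB1, the mitochondrial acyl carrier protein, at 11.32, NDUFS4 and NDUFS6 of the peripheral arm at 8.19 and 7.33, NDUFV3 at 8.07 and NDUFC1 at 6.69. The remaining ones were NDUFA1, NDUFA2, NDUFA3, NDUFA5 to NDUFA8, NDUFA10 and NDUFA11, at 6.29 to 10.39, and NDUFB1 to NDUFB3, NDUFB5 to NDUFB7 and NDUFB9 to NDUFB11, at 6.42 to 9.64. NDUFB2 was the only member with a second row, which was also equal, at 6.12. The mean difference of complex I was -0.0044. Further subunits, among them the core subunit NDUFS8, appeared only in rows listed under several symbols and were not counted.

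In complexes II and III every gene but UQCRHL had equal values on both arrays, where 76.0% of all genes past the signal limit were equal. With so few genes this is not read as a trait of these complexes. Succinate dehydrogenase, complex II, was represented by 3 subunits, all equal, with the flavoprotein SDHA at 8.13 and the membrane anchors SDHC and SDHD at 11.15 and 11.62. In complex III, 6 of 7 genes were equal. The core proteins UQCRC1 and UQCRC2 stood at 10.20 and 14.47, UQCR10 at 9.34, UQCRQ at 7.29, UQCR11 at 6.11 and UQCRB at 5.89, within the range of the background rows. UQCRHL, a close copy of the hinge protein gene UQCRH, had 10.72 on the knockdown array and 10.63 on the control array, a difference of 0.098 just inside the limit. A row listed under both UQCRH and UQCRHL was equal at 9.03, and the 2 genes can share probes, so this difference is uncertain. It passed the limit after a second quantile normalization, with 0.11, and after removal of a signal-dependent trend, with 0.11.

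Complex IV held the only member that was higher, where 6.76% of all genes past the signal limit were higher. COX8A, a small subunit of cytochrome c oxidase, had 15.77 on the knockdown array and 15.63 on the control array, a difference of 0.14 or 1.10-fold. COX5A, which neighbours the catalytic core, had 11.01 on the knockdown array and 11.08 on the control array, a difference of -0.074 within the limit. Several subunits of this complex exist as a widespread form and a form restricted to certain tissues. The restricted forms COX4I2, of lung, COX6A2 and COX7A1, of heart and skeletal muscle, and COX7B2 and COX8C, of testis, had 4.78, 4.45, 3.63, 3.38 and 3.82 on both arrays. These are the 5 members below the signal limit, and no difference can be read from them. The widespread partners COX4I1, COX6A1, COX7A2 and COX7B stood at 12.66, 15.46, 10.08 and 10.44 on both arrays, above every background row, as did COX8A. Of 3 further muscle genes, CKM and MYH7 were at 3.66 and 4.53 on both arrays, while ACTA1, at 6.94, lay above the background rows. COX6B1 at 12.04, COX5B at 8.28 and COX7A2L, which takes part in joining complexes III and IV, at 7.27 were equal too. COX6C was equal at 5.17, within the background range. Over the 10 genes past the limit the mean difference was 0.0067.

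In complex V, 16 of 18 genes were equal and 0 passed the limit. Over all genes past the signal limit, 76.0% were equal, 6.76% higher and 6.62% lower. In the catalytic head, ATP5F1A and ATP5F1B, the alpha and beta subunits, were at 11.93 and 16.56 on both arrays, and the central stalk subunits ATP5F1C, ATP5F1D and ATP5F1E at 14.72, 9.33 and 7.73. ATP5PB of the peripheral stalk had 13.06 on the knockdown array and 13.07 on the control array, and ATP5PD had 14.83 on the knockdown array and 14.80 on the control array. Their differences of -0.0088 and 0.034 show that the table does hold small differences. That of ATP5PD passed the limit, with 0.12, after a second quantile normalization. The other stalk subunits ATP5PF and ATP5PO were equal at 8.88 and 7.97. ATP5MC1, ATP5MC2 and ATP5MC3, which encode the same mature c subunit of the rotor ring, were equal at 7.999, 6.39 and 6.81. The small membrane subunits ATP5ME, ATP5MF, ATP5MG and ATP5MJ were equal at 7.10 to 9.36, and ATP5MGL was equal at 5.39, within the background range. ATP5IF1, the inhibitor that blocks hydrolysis of ATP, was equal at 8.37. The mean difference of complex V was 0.0014, and its sign turned with the scaling, with -0.0051 after median centring and -0.0062 after removal of a signal-dependent trend.

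Set side by side, the complexes differed little. The share of equal genes was 87.5% in complex I, 100% in complex II, 85.7% in complex III, 80.0% in complex IV, 88.9% in complex V and 81.3% among the assembly factors. Over all genes past the signal limit it was 76.0%. Over the 70 subunits past the signal limit, 1 was higher and 1 lower, with a mean difference of 0.00071. That is 1.43% each way, against 6.76% higher and 6.62% lower over all genes. The mean of the complexes ranged from -0.0044 in complex I to 0.014 in complex III, which in complex III came from UQCRHL alone. With 1 array per group no difference between complexes was tested, and signals of different rows do not compare the amounts of their transcripts.

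**Figure D2:**
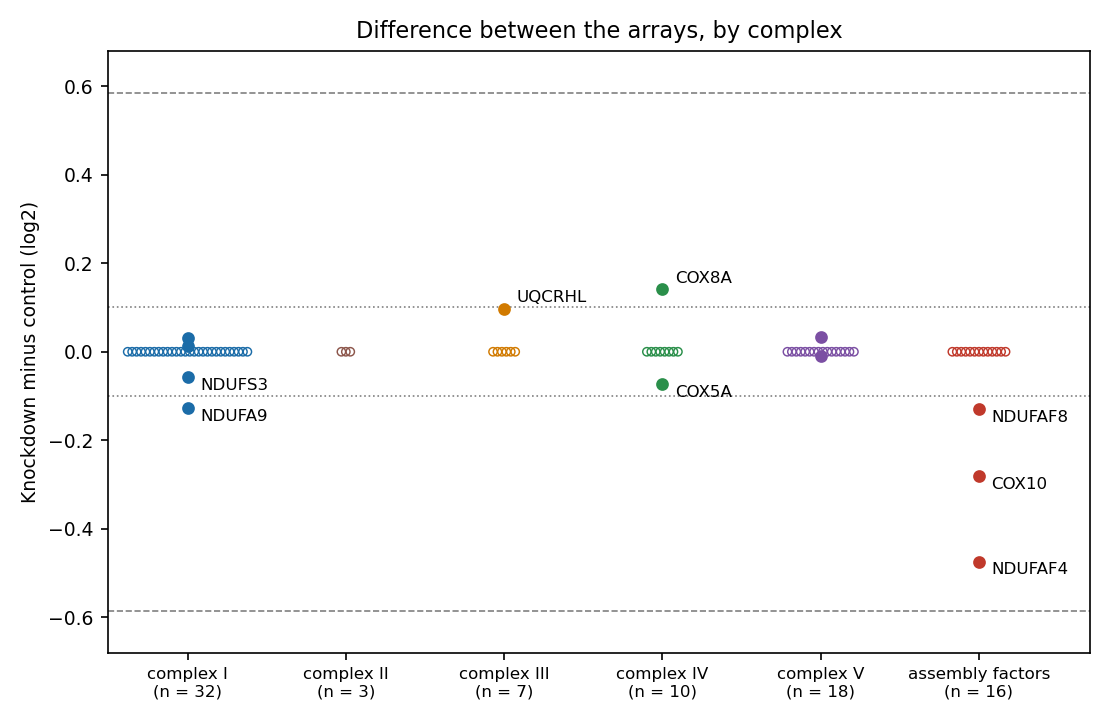
Difference between the arrays (knockdown minus control, log2) for the 86 genes past the signal limit, by complex. Open circles are genes with equal values, spread sideways at 0, and filled circles are genes that differed, with dotted lines at 0.1 and dashed lines at 1.5-fold. NDUFAF4, COX10 and NDUFAF8 lie lowest and COX8A highest.

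Equal values were less frequent among bright genes, in the members and in all genes alike. Past the limit, members had a median signal of 8.51 and all genes one of 7.64. Of members with a mean signal up to 7, 20 of 21 were equal, and of those from 7 to 9, 27 of 28. From 9 to 11 it was 16 of 20, or 80.0% against 64.8% of all genes, and from 11 up it was 11 of 17, or 64.7% against 48.4%. In each of the 4 ranges the equal share of the members was above that of all genes. Of the 37 members with a signal of at least 9, 27 were equal, 73.0% against 58.2% of all such genes. Of these 37, 1 was higher and 2 were lower by more than 0.1, against 10.7% higher and 14.3% lower among all genes of that signal. By any amount, 5 of the 37 were higher and 5 lower, against 17.7% and 24.1%, and 0 passed 1.5-fold in either direction, against 1.35% upward and 1.07% downward. The 12 members that differed at all comprised 5 higher and 7 lower ones, where 11.8% of all genes were higher and 12.1% lower by any amount.

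**Figure D3:**
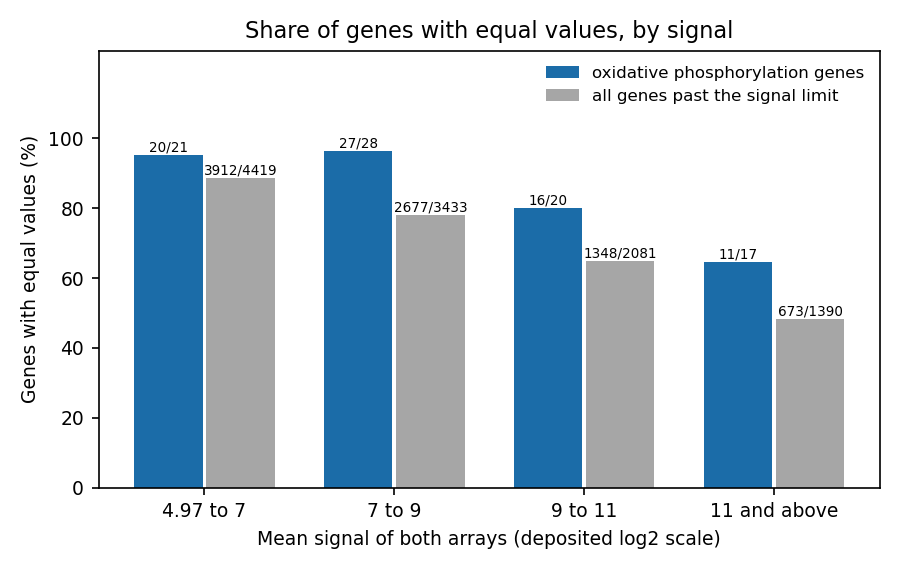
Percent of genes with exactly equal values on the knockdown and control arrays, by mean signal on the deposited log2 scale, for oxidative phosphorylation genes (blue) and all genes past the signal limit (grey). Numbers over the bars are equal genes of all genes in the range, and the share of the members falls to 64.7% in the brightest range, where that of all genes is 48.4%.

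Assembly factors that the symbol rule does not catch were counted in the same way. Of 37 past the signal limit, 4 were lower by more than 0.1, or 10.8% against 6.62% of all genes, 0 were higher, against 6.76%, and 28 were exactly equal. Among all genes with a signal of at least 9, 14.3% were lower. SCO1, a copper chaperone of complex IV, had 12.34 on the knockdown array and 12.70 on the control array, a difference of -0.36. COA7, also of complex IV, had 9.69 on the knockdown array and 9.95 on the control array, a difference of -0.26. TACO1, which activates translation of a mitochondrially encoded subunit of complex IV, and LYRM7, of complex III, differed by -0.26 and -0.19. DMAC2, which acts on the membrane arm of complex I and is listed under a symbol outside the rule, had 10.18 on the knockdown array and 10.44 on the control array, a difference of -0.26.

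Other mitochondrial gene sets were set beside the same shares over all genes, 6.76% higher and 6.62% lower by more than 0.1, and 10.7% and 14.3% at a signal of at least 9. Among 74 mitochondrial ribosomal proteins, which make the subunits encoded in mitochondrial DNA, 16 were lower by more than 0.1, 21.6%, 0 were higher and 46 were equal, with a mean difference of -0.053. MRPS18B, of the small ribosomal subunit, had 11.60 on the knockdown array and 12.04 on the control array, a difference of -0.45. MRPL58, a release factor built into the large subunit, had 10.96 on the knockdown array and 11.33 on the control array, a difference of -0.37. Among 52 cytosolic ribosomal proteins, 1 was lower, RPS15 with -0.15, 0 were higher and 43 were equal. In the TCA cycle, 2 of 16 genes were higher and 2 lower, and 7 were equal. Citrate synthase, CS, had 12.36 on the knockdown array and 12.53 on the control array, a difference of -0.17, and IDH3A differed by -0.13. The higher ones were SUCLG2 and IDH2, with 0.11 and 0.10. Of 20 genes of electron carriers and ubiquinone, 1 was higher and 2 were lower. PDSS1, which makes the side chain of ubiquinone, had 9.08 on the knockdown array and 9.38 on the control array, a difference of -0.30, and SQOR, which feeds electrons from sulfide to ubiquinone, differed by 0.16. CYCS, cytochrome c itself, differed by -0.11. Of 16 regulators of mitochondrial biogenesis, 1 was lower and 0 higher, namely the coregulator HCFC1 with -0.19, and 10 were equal. Of 5 genes of ATP and phosphate exchange, 0 passed 0.1, and their differences ran from -0.053 to 0.

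Of 9 hypoxia-linked genes that turn respiration down or remove mitochondria, or are common markers of hypoxia, 6 were higher by more than 0.1 and 0 lower, against 6.76% higher and 6.62% lower over all genes. BNIP3, a receptor for the removal of mitochondria, had 8.62 on the knockdown array and 8.11 on the control array, a difference of 0.50. PDK1, which inhibits pyruvate dehydrogenase, had 9.14 on the knockdown array and 8.68 on the control array, a difference of 0.46. BNIP3L, a relative of BNIP3, VEGFA, PDK3 and ADM differed by 0.43, 0.13, 0.11 and 0.11. HIGD1A, which stands in this list and among the further assembly factors, was equal at 12.98, as were PDK2 at 6.56 and LONP1 at 8.23. EGLN3 and PDK4, also in the list, lay below the signal limit at 3.58 and 3.74 on both arrays and are not among the 9. The list was chosen with earlier results of these data known. The genes encoded in mitochondrial DNA were not analysed here.

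**Figure D4:**
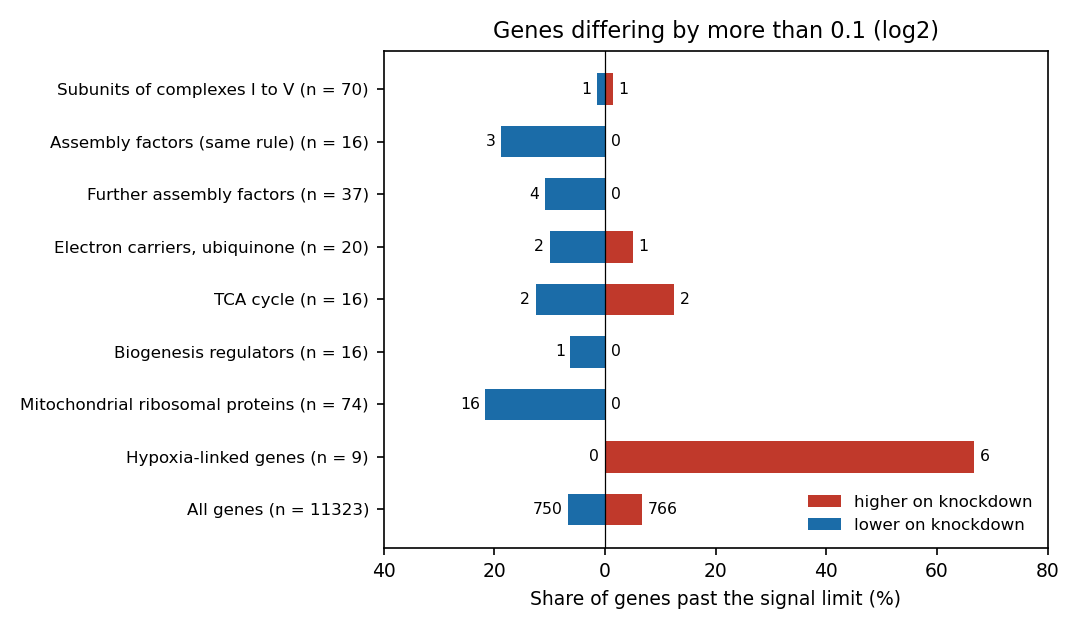
Share of genes past the signal limit that differed by more than 0.1 (log2), with genes higher on the knockdown array to the right (red) and lower ones to the left (blue), for the oxidative phosphorylation genes, other mitochondrial gene sets and all genes. Numbers at the bars are counts of genes, and n is the number past the limit. Subunits of complexes I to V show 1 gene on each side, mitochondrial ribosomal proteins 16 lower and hypoxia-linked genes 6 higher. The sets were chosen with earlier results of these data known.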

How the data were processed

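Total RNA of KYSE150 cells was amplified, labelled with biotin and hybridized by the authors, 1 array per group. The deposited log2 values come from RMA run by the authors (version not given). They reach 19.93, beyond the 16 bits of a scanner, and no source names the step behind this. Of 70523 rows, 23781 carried exactly 1 symbol, and none of the 1543 rows with several was given a gene. Gene IDs brought 21494 rows to current RefSeq symbols (GRCh38.p14). The 23 background probe rows had a median of 3.34, and the array medians were 4.35 for the knockdown and 4.34 for the control.

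Members, lists and ribosomal protein sets were chosen with earlier results of these data known. By rule the text names, per complex, up to 4 members with the largest difference beyond 0.1 and the highest and lowest signals, also any past 1.5-fold, the isoform pairs and the core subunits of complex I, and per further list the 2 genes with the largest difference beyond 0.1. All other genes with values, such as TACO1, LYRM7, DMAC2, CYCS, BNIP3L and UQCRHL, were added with their values in view. The counts and means of the members, by complex and among the assembly factors under the rule, were recomputed under 3 scalings. For these, arrays were centred on their medians, quantile-normalized again or detrended by loess (span 0.3). The further lists and the ribosomal protein sets were not recomputed. Some of their calls lay close to the limit of 0.1, such as IDH2 with 0.101 and MRPS7 with -0.102. Further alternatives averaged the rows of a gene, dropped the signal limit or set it at the 75th percentile (7.60), counted any difference or 2-fold ones, and used the median. The steps were tested on simulated data, a copy of the control array with some genes shifted 2-fold, at the 1.5-fold limit only. The limit of 0.1 was not tested in this way. Python 3.11.15, pandas 2.3.3, NumPy 2.4.6, statsmodels 0.14.6 and matplotlib 3.10.9 were used.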

Additional observations from a re-analysis of the deposited data

Results flagged for a closer look

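A row outside the comparison had a higher signal on the knockdown array. The pseudogene COX6A1P2, left out of the members, had 14.17 on the knockdown array and 14.09 on the control array, a log2 difference of 0.083, while COX6A1, whose sequence is close to it, was equal at 15.46 on both arrays.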

How the results depend on the processing

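No paired analysis was possible because each group held 1 array. Of 161 values under alternatives, for 23 counts and means, 144 stayed within 1.5 times the count or within 0.01 of the mean. Among these 144 are the values with the mean over all rows, which could not move. Only NDUFB2 had a second row, and both of its rows were equal. The counts without the signal limit, also among the 144, could not move either, because every member below the limit was equal on both arrays. A change of sign was counted only between means beyond 0.1, and no mean was that large. The 5 genes called kept their direction and passed 0.1 under all 3 scalings. Each of them had 1 row, so the mean over all rows could not change them. With a second quantile normalization 3 members were higher by more than 0.1, 1 more each in complexes III and V (UQCRHL and ATP5PD), and the mean of the assembly factors was -0.069. With loess 2 were higher, 1 of them in complex III. Counting any difference, 5 members were higher and 7 lower: 2 and 2 in complex I, 1 higher in complex III, 1 lower in complex IV besides COX8A, and 1 higher and 1 lower in complex V. With the signal limit at the 75th percentile NDUFAF4 was no longer counted, and the mean of complex III was 0.024. The median in place of the mean was 0 for complex III and for the assembly factors. The mean of complex V, 0.0014 as deposited, was -0.0051 after median centring and -0.0062 after loess, and that of complex II, 0 as deposited, was -0.0065 after median centring and 0.0091 after loess. The median difference over all genes, 0 as deposited, was -0.016 after the second quantile normalization and closer to 0 under the other scalings. The 8 members past the limit whose signals lie within the range of the background rows cannot show a difference reliably.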

Other observations

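Among rows left out of the comparison, 11 of 12 rows listed under several symbols and 6 of 8 pseudogene or antisense rows were equal on both arrays. One row, listed under COX10-DT and LOC100506974 and not assignable to 1 of them, had 8.12 on the knockdown array and 8.59 on the control array, a difference of -0.47, and COX10-DT is by its symbol a divergent transcript of COX10. The other row under these symbols was equal at 3.58. The pseudogene row COX11P1 had 5.68 on the knockdown array and 5.90 on the control array, a difference of -0.21, both within the range of the background rows. COXFA4, formerly NDUFA4, and COXFA4L2 carry symbols outside the rule and were equal at 7.23 and 5.41.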
